A study of Mus musculus with 18 samples.

Results

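miR-191-5p and miR-425-5p are the 5′-arm products of hairpins that lie on the same strand inside the gene Dalrd3. They were selected by name: every chimeric read whose miRNA was given as mmu-miR-191-5p or mmu-miR-425-5p (mouse miR-191-5p and miR-425-5p) was taken, from libraries that named 374 miRNAs in all. The pair made up 2 of these 374 names and had 2929 of the 411434 chimeric reads of the 6 Ago2 immunoprecipitation (IP) libraries, 2160 for miR-191-5p and 769 for miR-425-5p. They were singled out with their knockout against wild-type difference in view, so that difference is given below as a description, without a test.

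The libraries came from miR-eCLIP, in which cells are crosslinked with 254-nm UV light, Argonaute 2 (Ago2, the protein that carries miRNAs) is immunoprecipitated, and the miRNA is ligated to the RNA held by the same protein, so that a chimeric read names a miRNA and places the RNA it contacted. Total thymocytes of 6-week-old mice were used, from C57BL/6 wild types and from B6.Mirc14tm1.1Ankr mice, labelled miR181a/b-1-KO and called the knockout here; the labels name no Cre and no restriction to a cell type. Each genotype had 3 Ago2 IP libraries and 3 libraries that were also enriched for miR-181 (the enriched libraries); the 6 inputs were not analysed here. The labels do not say whether replicates are separate animals, nor whether Ago2 IP and enriched libraries share cells, so the spread between libraries may be technical.

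A miRNA finds its targets mainly by pairing of its seed, bases 2 to 8 from its 5′ end, with the target RNA, and Ago2 with its partners then lowers the translation or the stability of that RNA. Both miRNAs come from the same host transcript and are abundant in many blood and lymphoid cells. miR-191 and miR-425 differ in their seeds, and so in the targets they can pair with, although they are made together.

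The mature sequences are shown because the seeds, in capitals, differ.
miR-191-5p: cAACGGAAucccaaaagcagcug
miR-425-5p: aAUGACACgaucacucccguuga
Both are 23 nt long. How the reads of each relate to its amount in the cells was not tested, so read ratios of the pair are not ratios of amounts. No other mature mouse miRNA of the RefSeq table (1679 names, build GRCm38.p6) has the miR-191-5p seed, and 1, miR-489-3p, has that of miR-425-5p; it had no read in the Ago2 IP libraries. The hairpins, with the 5′ arm in capitals, are shown because some reads of each miRNA lay inside its own.
Mir191: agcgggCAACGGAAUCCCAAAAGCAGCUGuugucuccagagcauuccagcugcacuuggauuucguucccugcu
Mir425: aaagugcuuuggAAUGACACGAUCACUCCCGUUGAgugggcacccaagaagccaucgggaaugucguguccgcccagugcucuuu
Mir191 lies at chr9:108568319-108568392 and Mir425 at chr9:108568777-108568861, both on the plus strand (GRCm38.p6), with 384 nt between them, inside the span of Dalrd3 (chr9:108567484-108572773). No read named miR-191-3p or miR-425-3p, the opposite arms. Against the limit of 3 reads that a count of 0 allows over the 6 libraries, the 5′ arm was at least 720-fold higher for miR-191 and at least 256-fold higher for miR-425.

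The Ago2 IP libraries held 43983 to 117849 chimeric reads. Reads of the miR-181 family, of which the miR-181a/b-1 locus is deleted, were 30.2% to 32.3% of them in wild type and 1.33% to 1.45% in the knockout, which matches the labels. Shares below are therefore of the 29771 to 82309 reads per library that named another miRNA (non-181 reads). All 11 thymocyte marker genes had reads, 4902 in all, or 1.13% to 1.35% of all reads in wild type and 1.04% to 1.13% in the knockout. Among markers of other cells, stroma (Col1a1, Col1a2, Col3a1) and thymic epithelium (Foxn1, Psmb11, Krt5, Krt8) had no read, B cell genes had 6 (Ms4a1 none), myeloid genes 10 (Cd14 none), erythroid genes 19, and endothelial genes 141, all in Pecam1 with none in Cdh5. Among miRNA markers the myeloid miR-223-3p had 49 reads, the erythroid miR-451a 24 and miR-144-3p none, and the endothelial miR-126a-3p 24. Of the stromal pair, 1 of 2 had a read and it had 1; miR-205-5p had none, and the epithelial pair had 8 in all.

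By reads, miR-191-5p stood 25th and miR-425-5p 41st among the 362 non-181 miRNAs of the Ago2 IP libraries. The miR-191-5p share of non-181 reads was 0.580%, 0.524% and 0.568% in the 3 wild-type libraries and 0.682%, 0.738% and 0.707% in the 3 knockout libraries. Every knockout library was above every wild-type library. The means were 0.557% ± 0.0292 and 0.709% ± 0.0279 (SD, n = 3 each), a log2 ratio of 0.35 that rests on 896 and 1264 reads. For miR-425-5p the shares were 0.216%, 0.201% and 0.195% in wild type and 0.242%, 0.246% and 0.249% in the knockout. These groups did not overlap either, though the gap between the nearest libraries was smaller than the counting error of each. The means were 0.204% ± 0.0110 and 0.246% ± 0.00378 (SD, n = 3 each), a log2 ratio of 0.27 from 332 and 437 reads.

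**Figure D1:**
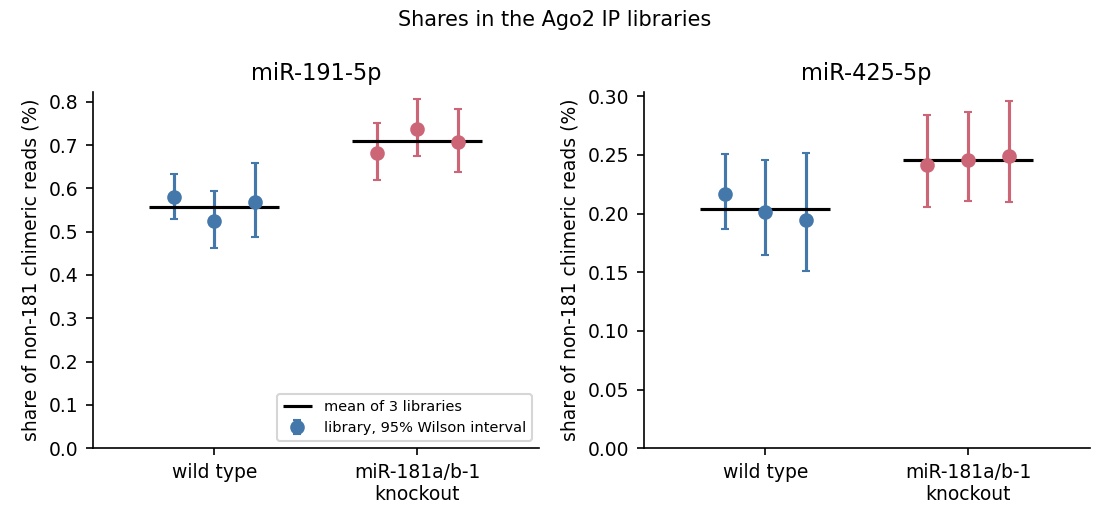
Share of non-181 chimeric reads (%, from 0) of miR-191-5p (left) and miR-425-5p (right) in each of the 6 Ago2 IP libraries, with 95% Wilson intervals as bars and the mean of 3 libraries as a line. The knockout points lie above the wild-type points for both, with means of 0.709% against 0.557% and of 0.246% against 0.204%, and the intervals of single miR-425-5p libraries overlap.

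Many miRNAs differed as much. Of 101 non-181 miRNAs with at least 100 reads, 16 (15.8%) were higher in the knockout without overlap and 17 were lower without overlap; the median log2 ratio was 0.06 and the range -0.76 to 0.79. In this order miR-191-5p stood 20th and miR-425-5p 26th. Since both were chosen from this contrast, nothing is read from their places in it. In bulk libraries fewer cells of a type and less of the miRNA per cell cannot be told apart, and a share also moves when other miRNAs take more or fewer reads. As shares of all chimeric reads, where the many miR-181 reads of wild type also stand in the denominator, the log2 ratios were 0.87 and 0.78.

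**Figure D2:**
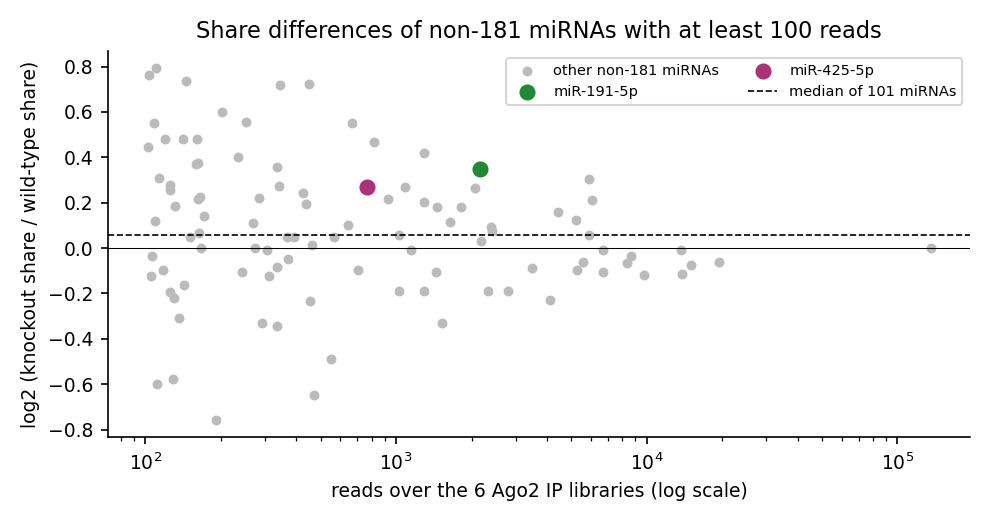
Log2 ratio of the mean knockout share to the mean wild-type share of non-181 reads against reads over the 6 Ago2 IP libraries (log scale), for 101 miRNAs with at least 100 reads; each point is 1 miRNA. miR-191-5p (0.35) and miR-425-5p (0.27) lie above the median of 0.06, among many others.

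In the Ago2 IP libraries the ratio of the pair varied little. miR-191-5p had 2.68, 2.60 and 2.91 reads for each read of miR-425-5p in the wild-type libraries and 2.82, 3.0 and 2.84 in the knockout libraries. The groups overlapped, with means of 2.73 ± 0.161 and 2.89 ± 0.0994 (SD, n = 3 each). The enriched libraries, with 2 to 11 reads of miR-425-5p each, gave ratios of 1.82, 4.0 and 1.83 in wild type and 3.2, 6.86 and 6.0 in the knockout, a much wider range. Over the 6 libraries, the log2 shares closest to those of miR-191-5p among 61 other miRNAs with at least 300 reads were those of miR-466a-3p (Pearson r = 0.96), miR-425-5p (0.94) and miR-103-3p (0.91). Those closest to miR-425-5p were miR-466a-3p (0.96), miR-191-5p (0.94) and miR-466p-3p (0.93). These 6 points share the genotype split and each library's total. After the group means were taken off, r between the pair was 0.39, and the only one of these above 0.5 was that of miR-191-5p with miR-103-3p (0.85).

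The enriched libraries gave a second measurement, at low depth: 1582 to 5282 non-181 reads each, of which 135 named miR-191-5p and 39 named miR-425-5p. The miR-191-5p share was 0.557%, 0.461% and 0.695% in wild type and 0.889%, 0.909% and 0.642% in the knockout. Knockout library 3 lay below wild-type library 3, so the groups overlapped. In edgeR's quasi-likelihood test over 35 non-181 miRNAs, of which 1 (2.86%) passed an adjusted p of 0.05, the log2 fold change of miR-191-5p was 0.54 (SE 0.29, adjusted p = 0.278), positive as in the Ago2 IP but not past the threshold. miR-425-5p fell under the filter on low counts; its shares were 0.306%, 0.115% and 0.379% in wild type and 0.278%, 0.133% and 0.107% in the knockout, a log2 ratio of the means of -0.63 from 20 and 19 reads. That sign is opposite to the Ago2 IP, and the groups overlap over most of their range.

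Set in order, the mean miR-191-5p share ran from 0.557% ± 0.0292 (wild-type Ago2 IP) through 0.571% ± 0.118 (wild-type enriched) and 0.709% ± 0.0279 (knockout Ago2 IP) to 0.813% ± 0.149 (knockout enriched; SD, n = 3 each). The first and the last step were within the SD of the more variable group; the middle one, between groups of different genotype and library type, was larger than it. For miR-425-5p the order was 0.172% ± 0.0922 (knockout enriched), 0.204% ± 0.0110 (wild-type Ago2 IP), 0.246% ± 0.00378 (knockout Ago2 IP) and 0.267% ± 0.136 (wild-type enriched). Of these neighbours, the means of the 2 Ago2 IP groups lay further apart than their SDs. That is the contrast the pair was chosen with, so it is a description and not a test. Each enriched group lay within its own SD of the group beside it.

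Reads of a miRNA inside its own hairpin were set apart from targets. For miR-425-5p, 28 of 769 Ago2 IP reads (3.64%, 95% Wilson interval 2.53% to 5.21%) lay in Mir425: 3, 5 and 5 in the wild-type libraries and 3, 7 and 5 in the knockout libraries. The groups overlapped, and the reads lay at 2 positions, 20 reads at base 19 and 8 at base 21 of the mature miRNA. The mean share per library was 4.29%, and 1.33% when reads of the same position were counted once. For miR-191-5p, 14 of 2160 reads (0.648%, interval 0.386% to 1.09%) lay in Mir191, 1, 1 and 0 in wild type and 3, 8 and 1 in the knockout, and again at bases 19 (9 reads) and 21 (5 reads). Among the 101 miRNAs with at least 100 reads the median share in any hairpin was 0.00%, and 3 had a larger share than miR-425-5p with every read counted. Outside the hairpins, Dalrd3 had 2 reads, both of miR-142a-3p, and none of the pair.

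Outside hairpins, 2146 miR-191-5p reads and 741 miR-425-5p reads remained, and 95.1% and 95.7% of them lay in a named gene span. The miR-191-5p reads touched 1319 spans, 983 of them with a single read, and 31 spans had reads in at least 4 of the 6 libraries. miR-425-5p touched 552 spans, 461 with a single read and 8 in at least 4 libraries. Of named reads, 96.3% and 97.5% were in protein-coding genes. Counting spans with at least 2 reads, 30 were common to both, 8.93% of the 336 of miR-191-5p and 33.0% of the 91 of miR-425-5p. Spans with many reads of all miRNAs pass this minimum more easily, and the overlap of other miRNA pairs was not counted. Nothing about common targets is therefore read from it. Arpp21, with 1262 reads of all non-181 miRNAs, was among the spans with most reads of each.

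To ask where each miRNA was found more often than other miRNAs, its reads in each gene span were set against those of all other non-181 miRNAs in the same library, with edgeR's quasi-likelihood test, the library as a block and p-values adjusted over all spans with at least 20 reads. For miR-191-5p 5 of 3409 spans (0.147%) were higher at an adjusted p of at most 0.05: Fam78a, Ethe1, Txnip, Vamp1 and Cfl2. None was lower; 104 spans had an unadjusted p under 0.05. For miR-425-5p 6 of 3403 spans (0.176%) were higher, among them Ikzf1, Polh, Pkm, Ldlrad3 and Ptk2b. None was lower either, and 75 had an unadjusted p under 0.05. DESeq2 called no span lower with either miRNA, while with TMM factors nearly all spans called were lower (1730 of 1732 for miR-191-5p and 1718 of 1719 for miR-425-5p). DESeq2 called 2146 and 3171 higher, and with a lower bound of 1e-06 on fitted means 48 and 46, in each case with all 5 or all 6 spans called by edgeR among them. With few reads per span, a miRNA that is missing from a span can rarely be shown to be depleted. The called spans held 125 of 2146 reads of miR-191-5p (5.82%) and 41 of 741 of miR-425-5p (5.53%). The other reads lay in tested spans that were not called, in spans with too few reads to test, or in no named span. Of the 1319 and 552 spans touched, 998 and 394 were tested.

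**Figure D3:**
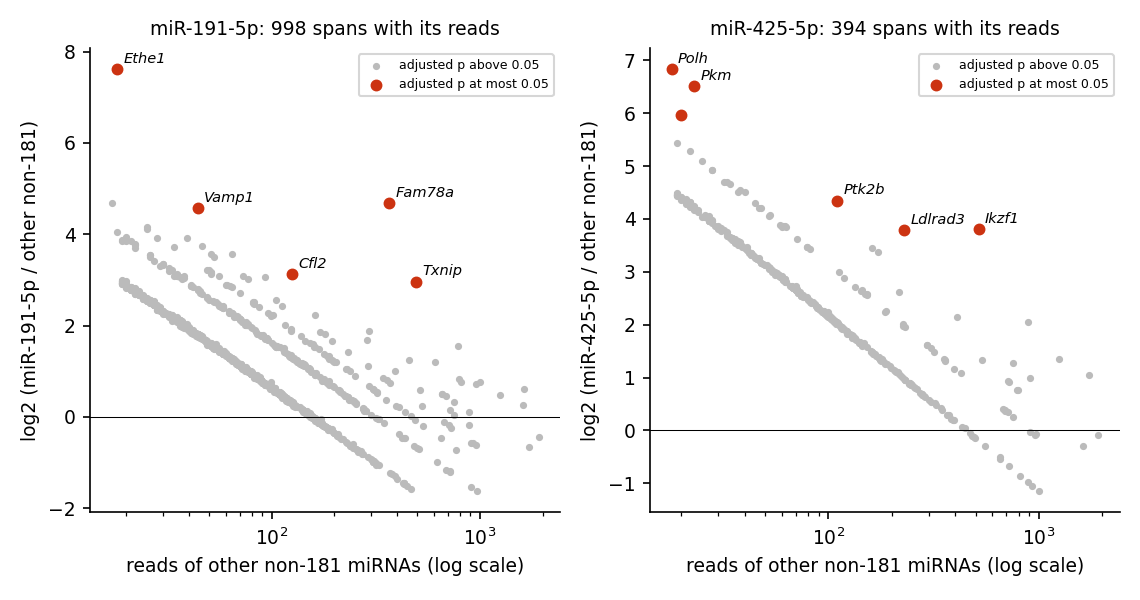
Log2 ratio of the miRNA's reads to those of other non-181 miRNAs in each gene span, against the reads of those others (log scale), for spans with at least 1 read of miR-191-5p (left, 998) or miR-425-5p (right, 394); red points have an adjusted p of at most 0.05 (edgeR). The diagonal bands are spans with 1, 2 or 3 reads of the miRNA, and the red points stand above them; called spans with at least 5 reads of the miRNA are named.

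Fam78a had the most reads of miR-191-5p: 13, 12 and 2 in the wild-type libraries and 10, 16 and 8 in the knockout libraries. All 6 libraries had some, and the groups overlapped. The 61 reads stood beside 366 of other non-181 miRNAs, a 25.5-fold preference (log2 4.67, SE 0.30, edgeR adjusted p = 1.54e-52). With TMM factors the log2 ratio was 1.25, still called (adjusted p = 1.28e-05). Of these reads 51 lay at chr2:32067728-32067965 on the minus strand, the strand of Fam78a, at 35 positions. There they were 63.8% of the non-181 reads (interval 52.8% to 73.4%). The same cluster held 37 reads of the miR-181 family and 15 of miR-16-5p, so miR-181 and miR-191 reads lay side by side; the median miR-191-5p read was 21880 nt from the end of the gene span. In the enriched libraries 13 of 130 miR-191-5p reads outside hairpins (10%) were in Fam78a, in 5 of 6 libraries, against 0.228% of the reads of other non-181 miRNAs.

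Ethe1, a mitochondrial enzyme of sulfide breakdown, had 2, 3 and 2 miR-191-5p reads in wild type and 2, 7 and 9 in the knockout. The 2 highest libraries were both of the knockout, while knockout library 1 was level with wild type. Its 25 reads outnumbered the 18 of all other non-181 miRNAs together, a 197-fold preference (log2 7.62, SE 0.51; log2 4.20 with TMM factors). Ethe1 reached the minimum of 20 reads only through the miR-191-5p reads; with a minimum of 10, which the reads of other miRNAs pass alone, its edgeR adjusted p was 1.39e-40. The main site, chr7:24608721-24608781 on the plus strand, took 17 reads at 16 positions with a median distance of 170 nt to the end of the span. Enriched libraries added 4 reads of miR-191-5p, all in the knockout, and none of other non-181 miRNAs. The knockout also had more miR-191-5p reads in these libraries as a whole, 92 against 43 in wild type.

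Txnip encodes thioredoxin-interacting protein, which restrains glucose uptake and binds thioredoxin. Its miR-191-5p reads were 4, 1 and 6 in wild type and 3, 5 and 6 in the knockout, with overlapping groups. The 25 reads were a 7.79-fold preference (log2 2.96, SE 0.41, adjusted p = 3.54e-10), but the sign turned with TMM factors (log2 -0.50). Unlike Fam78a and Ethe1, Txnip was shared widely: in the cluster chr3:96561013-96561709 on the plus strand, 24 of 483 non-181 reads (4.97%) were miR-191-5p, beside 156 of miR-142a-3p and 90 of miR-20a-5p.

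Vamp1, a SNARE protein of vesicle fusion, had 7 miR-191-5p reads, 1, 1 and 1 in wild type and 0, 2 and 2 in the knockout. Against 44 reads of others the log2 ratio was 4.57 (SE 0.78, adjusted p = 2.99e-05), and 5 reads lay at chr6:125221133-125221170 on the plus strand. The Vamp1 call was lost with TMM factors (log2 1.19, adjusted p = 0.0874) and, like that of Cfl2, within each genotype alone. Cfl2, an actin-binding cofilin, had 2, 1 and 1 reads in wild type and 1, 1 and 1 in the knockout (log2 3.12, SE 0.72, adjusted p = 0.0176; log2 -0.33 with TMM factors). The Cfl2 call was lost when any library but knockout library 2 was left out, with adjusted p up to 0.263. Without knockout library 2, 8 spans were called for miR-191-5p in place of 5. The enriched libraries had no miR-191-5p read in Vamp1 or in Cfl2.

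Ikzf1 encodes Ikaros, a zinc-finger transcription factor of lymphocyte development, and led the miR-425-5p reads. It had 4, 2 and 1 reads in wild type and 3, 2 and 4 in the knockout. Reads were present in every library, and the groups overlapped. The 16 reads against 516 of other non-181 miRNAs were a 13.9-fold preference (log2 3.80, SE 0.50, adjusted p = 5.93e-10); with TMM factors the ratio was below 0 (log2 -1.02, adjusted p = 0.00856). At chr11:11712872-11712941 on the plus strand, the strand of the gene, 14 of the 15 reads of any miRNA were miR-425-5p (93.3%, interval 70.2% to 98.8%), at 13 positions and in all 6 libraries. This site was 60034 nt from the end of the span, and the other reads of Ikzf1 lay elsewhere in the gene. No miR-425-5p read of the enriched libraries, 36 outside hairpins, was in Ikzf1.

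Ldlrad3, a membrane protein with LDL-receptor repeats, had 7 miR-425-5p reads, 1, 1 and 0 in wild type and 1, 4 and 0 in the knockout. All 7 lay at chr2:102006526-102006550 on the minus strand, where no other miRNA had a read. The span was called (log2 3.79, SE 0.72, adjusted p = 0.000948), with a sign that turned under TMM factors (log2 -0.997), and was lost without knockout library 2, which held 4 of the reads (adjusted p = 0.777). Polh, a DNA polymerase that copies past UV damage, had 1, 0 and 1 reads in wild type and 0, 1 and 2 in the knockout, against 18 of others (log2 6.84, SE 1.03; log2 2.13 with TMM factors). It too reached 20 reads only through its miR-425-5p reads, and with a minimum of 10 its adjusted p was 3.20e-06. At chr17:46172063-46172100 on the minus strand all 4 reads were miR-425-5p, and 1 more came from an enriched library. Of 36 miR-425-5p reads of the enriched libraries outside hairpins, only that 1 lay in a span called for miR-425-5p.

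The calls of Pkm and Ptk2b for miR-425-5p rest on 5 reads each and on 1 library. Pkm, pyruvate kinase, had 1, 0 and 0 reads in wild type and 3, 1 and 0 in the knockout (log2 6.52, SE 1.02, adjusted p = 3.76e-06), all at chr9:59678743-59678744 on the plus strand. Without knockout library 1 its adjusted p was 0.395, and with TMM factors 0.0524 (log2 1.74). Ptk2b, a kinase of the focal adhesion kinase family, had 1 read in wild-type library 1 and 4 in knockout library 1 (log2 4.35, SE 0.89, adjusted p = 0.00394), and was lost without the latter (adjusted p = 0.776) and with reads of the same position counted once (0.0713); TMM factors turned its sign (log2 -0.41). Without knockout library 1, 2 spans were called for miR-425-5p in place of 6. Within each genotype alone no span was called for miR-425-5p, Ikzf1 included.

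**Figure D4:**
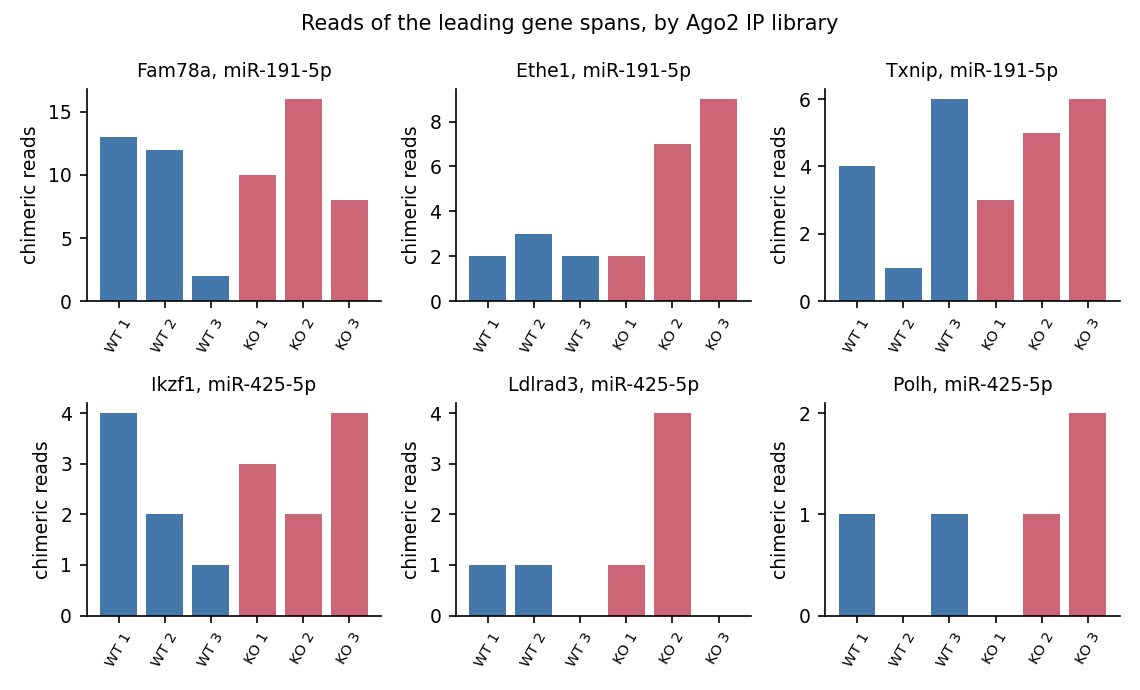
Chimeric reads in each Ago2 IP library (blue, wild type; red, knockout; axes from 0 and different in each panel) for 3 gene spans of miR-191-5p and 3 of miR-425-5p. Fam78a, Ethe1, Txnip and Ikzf1 have reads in all 6 libraries, with overlapping genotypes, and 4 of the 7 Ldlrad3 reads are in knockout library 2.

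Read positions differed between these spans in how much the miRNA shared its site. Over all clusters with at least 3 reads in at least 3 libraries, miR-191-5p had 23, of which it made up at least 50% of the non-181 reads in 12; miR-425-5p had 6 and made up at least 66.7% in each. Such clusters were found through the reads of the miRNA itself, which raises its share in them. Near the end of the gene span (under 2000 nt), sense reads in protein-coding genes were 21.3% ± 3.51 for miR-191-5p, 18.7% ± 3.75 for miR-425-5p and 20.3% ± 0.303 for other non-181 miRNAs (SD, n = 6 libraries); both differences were smaller than the spread between libraries. Sense reads were 98.5% and 97.4% of those of the pair and 97.9% of the others.

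**Figure D5:**
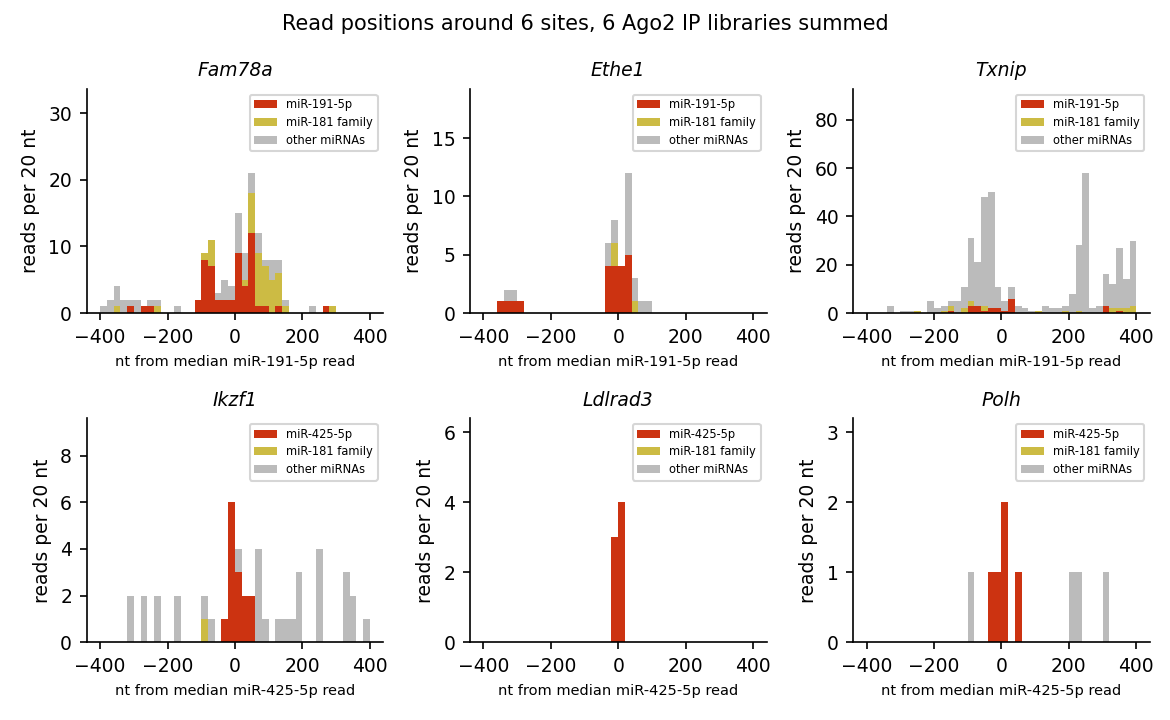
Reads per 20 nt, summed over the 6 Ago2 IP libraries, by distance in nt along the transcribed strand from the median read of miR-191-5p (top) or miR-425-5p (bottom) at 6 sites; colours separate that miRNA, the miR-181 family and other miRNAs. At Ldlrad3 all 7 reads are miR-425-5p, at Fam78a 51 miR-191-5p reads lie beside 37 of the miR-181 family, and at Txnip other miRNAs have most reads.

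The other spans with most miR-191-5p reads were not told apart from the background of other miRNAs. They were Rn18s-rs5 (16 reads; a ribosomal RNA copy, so that reads may belong to other copies), Bcl11b, a transcription factor of T cell commitment (15), the long non-coding Gm4258 (13), Arpp21 (11), the long non-coding RNA Malat1 (11), Rag1, the recombinase of receptor genes (10), and Aff3 (9). Aff3 was level with other spans, such as Satb1, Btg2 and Ptprc (9 each), and was taken first by name. By genotype, Malat1 had 1 read in wild type and 10 in the knockout, 7 of them in knockout library 2, and Gm4258 had 2 and 11, 7 in the same library. Arpp21 had 6 and 5. For miR-425-5p such spans were cyclin D3 (Ccnd3, 8 reads), Themis, a T cell receptor signalling protein (8), Arpp21 (7), Grap2, an adaptor of the T cell receptor (4), and Mbnl1, a splicing regulator (4). Of the 8 Themis reads 6 lay at chr10:28796310-28796363 on the plus strand, in 3 libraries, beside 4 of the miR-181 family.

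Reads of miR-191-5p and miR-425-5p were also set against each other in each span. Only 4 spans had 20 or more reads of the pair, and all 4 (100%) were called; with a minimum of 10 reads 6 of 17 were, and with 5 reads 6 of 52. Spans pass such a minimum through the miRNA that is high there, so these calls support nothing and the values are a description. Fam78a had 61 reads of miR-191-5p and none of miR-425-5p, at least 7.02-fold more per read of each miRNA when 3 reads over the 6 libraries are taken as the limit. Ethe1 had 25 and none, at least 2.88-fold more. Txnip had 25 and 1, a ratio of 8.63 (95% exact interval 1.41 to 354). Ikzf1 went the other way, with 5 reads of miR-191-5p and 16 of miR-425-5p, 9.27 times as many per read of each (interval 3.24 to 32.3). Without knockout library 3 only 1 span reached 20 reads and it was not called; without each of the other 5 libraries 1 to 4 were called.

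Targets published for the pair were counted from lists. Of 12 published targets of miR-191, 6 had miR-191-5p reads: Satb1, a chromatin organiser of thymocytes (9 reads in 5 libraries), the cyclin Ccnd2 (3), and Egr1, Sox4 and Bcl2 (2 each) and Mdm4 (1). Reads of other non-181 miRNAs were 1918 in Satb1, 274 in Bcl2, 167 in Mdm4, 65 in Sox4, 50 in Ccnd2 and 30 in Egr1. A span rich in reads of all miRNAs more readily holds some of miR-191-5p, so these counts alone show no preference. Of the 8 published targets that could be tested none passed, and 2, Ccnd2 and Egr1, had an unadjusted p under 0.05 (edgeR adjusted p = 0.669 for both). At least 1 read lay in 6 of the tested 8, against 29.3% of all spans tested, without a correction for the total reads of a span. The median log2 ratio of the 8 was 0.05, against -4.32 over all spans. With spans of 0 reads at the 3-read limit the medians were 1.93 and 3.09. Most of all tested spans had 0 reads, so -4.32 is a value fitted to an empty span. The 2 comparisons point opposite ways, and no lean towards published targets is read from them. Among published targets of miR-425, Igf1, Cyld, Foxo1 and Ccnd1 had no miR-425-5p read. At 741 reads this does not show that they are not bound.

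Signalling through the common gamma chain, which carries the interleukin signals that keep thymocytes and T cells alive, was the other list. Of its 19 genes 4 had miR-191-5p reads: Jak1 (3), Mcl1 and Bcl2 (2 each) and Stat5b (1). With miR-425-5p 2 had a read, Jak1 and Mcl1 (1 each). For each miRNA 14 were tested and none passed, in either direction; 28.6% and 14.3% had a read, against 29.3% and 11.6% of all spans tested. The list medians were -4.86 and -5.50 (1.86 and 3.40 at the limit), against -4.32 and -4.72 (3.09 and 4.82) over all spans. Most spans on both sides had 0 reads, so these medians too come from empty spans and nothing is read from them.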

How the data were processed

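Chimeric reads of 12 libraries were analysed. Per the submitters' processing notes, Bowtie2 2.4.5, STAR 2.7.10, SAMtools 1.11, UMI-tools 1.1.1 and bedtools 2.30.0 were used, with builds mm10 and GRCm38.p6. Which step each served is not stated there. Values are deposited counts, each line a count of 1 read at 1 position with its miRNA and strand, unscaled and not pooled.

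Each read was assigned to a miRNA hairpin, else to a single protein-coding gene span, else to any single span of the RefSeq table of GRCm38.p6, which has no exons. Reads of all libraries on a strand were joined into clusters at gaps of at most 20 nt. Preference was tested with edgeR 4.0.16 in R 4.3.3, on 2 counts per library (the miRNA and the others, or the pair), with library totals outside hairpins as sizes. The enriched fit used TMM factors over non-181 miRNAs and filterByExpr with a minimum count of 10. Both fits were tested on simulated data. For the preference fit the changed spans were drawn from those with many reads of other miRNAs. Recovery in spans with few such reads, like Polh and Pkm, was not simulated. Intervals are 95% Wilson intervals unless named exact, and with the 3-read limits cover counting error only.

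Members and lists were chosen with earlier results of these data known. Spans named are, for each miRNA, the 10 with most reads in at least 4 of 6 libraries and all spans called (at most 10 higher and 3 lower), beside the listed genes, the opposite arms, the host gene and the 3 miRNAs of most similar shares. Libraries of 1 group differed beyond counting noise over gene spans (chi-square) except knockout enriched libraries 2 and 3 (p = 0.202); 4.93% of the distinct reads of the smaller were also in the other, against 4.18% and 4.00% for the other pairs of that group, so they were kept apart, and counted as 1 sample in an alternative. Replicate numbers did not pair the enriched libraries. Some items of these lists are not reported here.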

Additional observations from a re-analysis of the deposited data

How the results depend on the processing

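The Ago2 IP shares were given without a test, so no replicate block was fitted to them. In the enriched libraries, same-numbered libraries did not deviate together (r = -0.22, -0.20 and 0.01), and with the replicate block miR-191-5p had a log2 fold change of 0.55 (adjusted p = 0.219); every alternative kept its sign and none passed (adjusted p from 0.148 to 0.797). The miR-425-5p ratio there was -0.46 with no filter. The signs of the Ago2 IP share differences held under every alternative tried, and only the denominator of all reads moved them beyond the spread (0.87 and 0.78); without each library in turn they ran from 0.31 to 0.38 for miR-191-5p and from 0.23 to 0.31 for miR-425-5p. The mean hairpin share of miR-425-5p per library went from 4.29% to 1.33% when reads at the same position were counted once, since its reads lie at 2 positions.

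For spans called against other miRNAs, the count of 5 for miR-191-5p became 1732 with TMM factors (1730 lower), 2146 with DESeq2 (all higher), 48 with the DESeq2 bound of 1e-06 (added after seeing the data), 2 in wild type alone and 3 in the knockout alone; leaving out libraries gave 4 to 8. The count of 6 for miR-425-5p became 1719 (1718 lower), 3171 and 46 (all higher) in the same order, 3 with at least 50 reads, and 0 over clusters (6 with an unadjusted p under 0.05), in wild type alone (6) and in the knockout alone (10), by edgeR; leaving out libraries gave 2 to 5. TMM factors, computed only from spans with reads in both columns, lowered the log2 ratio of spans with reads by a median of 3.35 and 4.70, and the signs of Txnip (-0.50), Cfl2 (-0.33), Ikzf1 (-1.02), Ldlrad3 (-0.997) and Ptk2b (-0.41) turned. The DESeq2 default bound on fitted means exceeds the reads expected in most spans. miR-142a-3p alone had 135712 of the 334873 reads of the other miRNAs. Without it edgeR called the same 5 spans for miR-191-5p, with log2 ratios of 4.07 (Fam78a), 7.03 (Ethe1), 2.83 (Txnip), 4.37 (Vamp1) and 3.69 (Cfl2). For miR-425-5p it then called 4 of 2279 spans (Ikzf1, Pkm, Ldlrad3 and Ptk2b). Between the pair, 4 became 0 with at least 50 reads and 0 within each genotype (1 span tested each), and 1 of 2 clusters; leaving out libraries gave 0 to 4. DESeq2 could not be fitted to these 4 spans. Depth limits every gene-level statement, since most spans had 1 read.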
